A study of Mus musculus with 6 samples.

Results

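The gene set described here holds 34 enzymes of amino acid, sugar, alcohol, urate and pyrimidine metabolism that are best known from the liver. The members were taken by gene symbol from a fixed list of names, and all 34 were found among the 35415 genes of the count and FPKM tables (FPKM is a level scaled to the length of the gene and to the size of the library). The list was put together with differences between the diets already in view, so the number of its members that differ describes the choice. The members were then separated by their mean FPKM over the control libraries. A member at 1 or more was called expressed, a member under 0.1 was called near zero, and a member between them was called low.

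The libraries were made from the lateral septum, a forebrain region between the lateral ventricles, of wild-type female C57BL/6 mice. Mice of about 8 weeks of age on arrival were fed for 12 weeks either a control diet or feed that held 50 mg of olanzapine in each kg. Olanzapine is a second-generation antipsychotic drug with known metabolic side effects. Tissue of 3 mice was pooled for each library, with 3 libraries per diet, and was sequenced as paired-end reads of 150 bases. Nothing else differed between the groups in the labels, and the 3 libraries of a group are pools rather than single mice. The comparison asked which genes differ between the diets.

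The urea cycle turns the ammonia released by amino acid breakdown into urea, and hepatocytes are the cells that run it in full. Hepatocytes also hold the pathways that degrade tyrosine, tryptophan, histidine and methionine, and the steps of gluconeogenesis that return carbon to glucose. Several of these steps exist in a liver isozyme and in a second isozyme of most other tissues, while enzymes such as Ass1, Cbs and Ahcy act in the brain as well.

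Totals ran from 38208153 to 39868872 counts per library, so depth was nearly equal. A test was possible for 17255 genes that passed a minimum count filter. The test was the quasi-likelihood test of edgeR, with p adjusted by the Benjamini-Hochberg method across these genes and written here as the edgeR adjusted p. A gene was called when this p was under 0.05 and the size of its log2 fold change was over 1. By this rule 164 genes (0.95%) were called higher and 10 (0.058%) lower with olanzapine. The 3 libraries of each group did not overlap in 13.3% of the genes tested in the higher direction and in 11.0% in the lower direction.

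Of the 34 members, 9 were called higher (background 0.95% of genes tested), namely Cps1, Otc, Arg1, Tat, Hpd, Mat1a, Pck1, Fbp1 and Adh1. No member was called lower (background 0.058%), by edgeR or by DESeq2, and at an unadjusted p under 0.05 edgeR had 0 members lower (8.4% of all genes tested) and 14 higher (9.19%). The filter let 26 members into the test. Of these, 15 passed it in the control libraries alone and 11 passed only through the olanzapine libraries, and 8 of the 9 called members were among those 11, so that a high olanzapine count was part of their way into the test. Olanzapine libraries lay above all control libraries, in normalized counts (counts scaled to an equal library size), in 14 of the 26 tested members (background 13.3%), and below them in 0 (background 11.0%). They also lay above in all 8 untested members, to which the background over tested genes does not apply. Among genes tested at the same control level the share lying above was 32.4% under 0.1 FPKM and 11.1% from 0.1 to 1 FPKM. The 8 members left untested were Hgd, Kmo, Hal, Uroc1, Agxt, Hao1, Prodh2 and Gys2. Tissue was measured in bulk, where a larger number of cells of one type and more RNA per cell cannot be told apart.

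The control level divided the set. Selected on that level, 10 members were expressed (Ass1, Asl, Fah, Gls2, Ahcy, Cbs, Cth, Khk, Aldh1a1 and Uox), 9 were low (Arg1, Tat, Hpd, Tdo2, Sds, Bhmt, Gnmt, Pklr and Adh1) and 15 were near zero (Cps1, Otc, Hgd, Kmo, Haao, Hal, Uroc1, Agxt, Hao1, Prodh2, Mat1a, Pck1, Fbp1, Gys2 and Dpys). Just inside the near-zero limit stood Dpys at a control mean of 0.0988 FPKM, and just outside it Tat at 0.165. At the other limit Gnmt stood at 0.897 FPKM and Uox at 2.31.

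None of the 10 expressed members was called, and their log2 fold changes ran from -0.07 to 0.43. Their sum in normalized counts was 9041 ± 528 (SD, n = 3) with the control diet and 9773 ± 547 with olanzapine, with overlapping ranges of 8432 to 9368 and 9326 to 10384. The 9 low members summed to 268 ± 81.2 and 1002 ± 165 normalized counts, and 4 of them were called. The 15 near-zero members summed to 71.4 ± 25.7 and 764 ± 106, and 5 of the 7 that could be tested were called. For comparison, among all genes tested at a control mean under 0.1 FPKM, 7.56% were called higher, at 0.1 to 1 FPKM 1.86%, and at 1 FPKM or more 0.229%. Olanzapine libraries lay above all control libraries in 6 of the 7 tested near-zero and 7 of the 9 low members, beside the 32.4% and 11.1% of all genes tested at those levels. The division used control values, so these class differences are a description without a test.

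**Figure D1:**
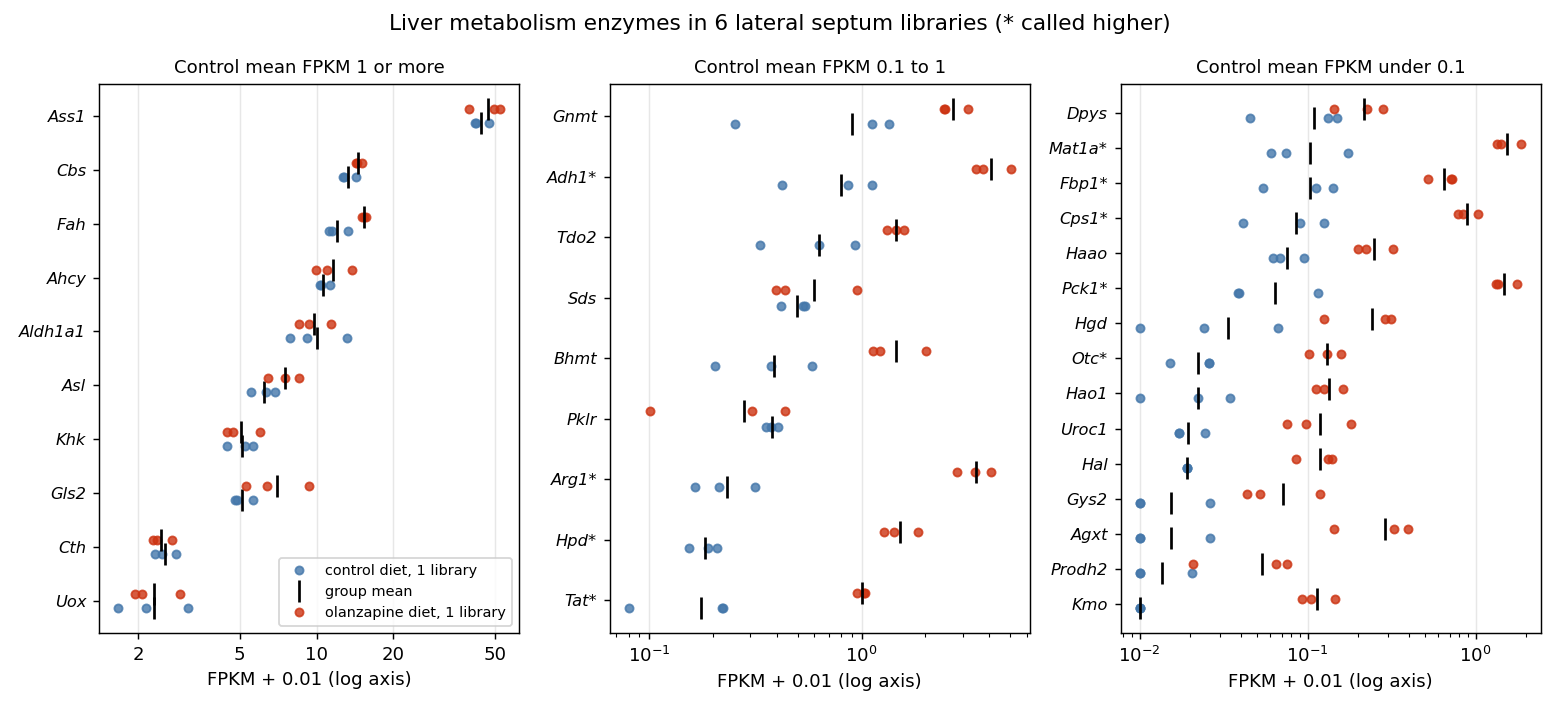
Level of each of the 34 enzymes in FPKM plus 0.01 (log axis) in every library, grouped by control level, with control libraries in blue, olanzapine libraries in red and group means as black ticks. The 10 expressed members on the left lie in the same range with both diets apart from Fah, while 21 of the 24 low and near-zero members (8 of them untested) have all 3 olanzapine points to the right of the control points.

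**Figure D2:**
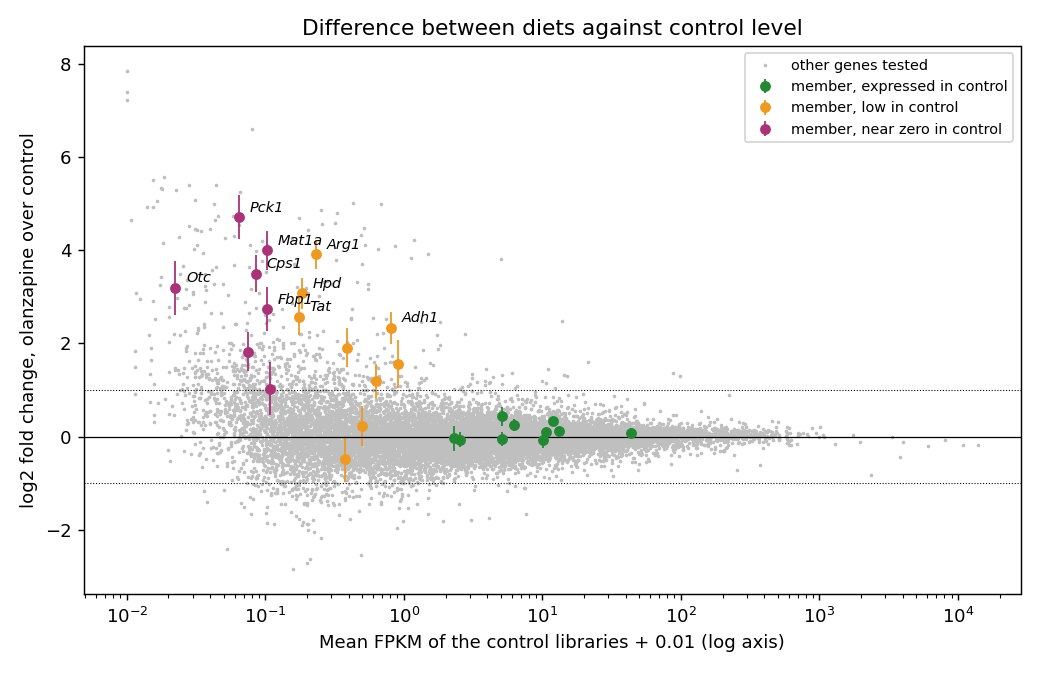
Log2 fold change of olanzapine over control (vertical axis, bars are SE) against the control mean in FPKM plus 0.01 (log axis) for the 26 tested members in colour and the other genes tested in grey, with dotted lines at the fold limits. All 9 called members are named and lie at control levels under 1 FPKM.

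The start sites of a few members on either side of this division are printed to show their base composition, which overlapped between the classes. RefSeq (GRCm38.p6, the build of the mm10 files) held a promoter for 25 of the 34 members, from 250 bases before to 50 after the start site. CG pairs, which are dense at the start sites of many widely expressed genes and sparse at those of many tissue-restricted ones, were counted in this window, a measure chosen after the data had been seen. The printed stretches are the 120 bases before the outermost annotated start, 5′ to 3′ on the strand of the gene, with CG pairs in capitals. First come 3 called members, Otc with 0, Pck1 with 4 and Hpd with 4 CG pairs in the stretch.
Otc (chrX:10252185-10252304, plus strand): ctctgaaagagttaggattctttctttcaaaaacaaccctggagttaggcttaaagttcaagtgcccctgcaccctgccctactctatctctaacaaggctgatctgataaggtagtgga
Pck1 (chr2:173152928-173153047, plus strand): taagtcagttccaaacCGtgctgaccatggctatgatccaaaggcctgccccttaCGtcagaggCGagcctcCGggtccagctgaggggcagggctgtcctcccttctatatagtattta
Hpd (chr5:123182728-123182847, minus strand): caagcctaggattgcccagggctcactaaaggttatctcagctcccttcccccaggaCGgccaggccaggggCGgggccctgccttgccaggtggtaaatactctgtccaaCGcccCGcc
Then come 3 of the 5 expressed members with such a stretch, the richest, Ass1 with 13 and Cbs with 9, and the poorest, Aldh1a1 with 1. Between them Khk with 4 and Ahcy with 5 CG pairs in the stretch, not printed, were close to Pck1 and Hpd.
Ass1 (chr2:31470087-31470206, plus strand): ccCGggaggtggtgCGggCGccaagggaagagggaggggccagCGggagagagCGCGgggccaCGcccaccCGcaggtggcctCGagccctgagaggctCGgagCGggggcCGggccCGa
Cbs (chr17:31637239-31637358, minus strand): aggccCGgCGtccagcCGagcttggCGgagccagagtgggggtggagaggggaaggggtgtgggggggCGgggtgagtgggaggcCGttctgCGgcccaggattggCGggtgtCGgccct
Aldh1a1 (chr19:20492463-20492582, plus strand): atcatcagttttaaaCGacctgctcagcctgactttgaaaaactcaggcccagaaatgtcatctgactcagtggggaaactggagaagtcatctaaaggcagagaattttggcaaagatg

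Over the whole window, the 11 near-zero members with a promoter had a median of 5 CG pairs (0 to 10), the 7 low members 6 (3 to 11) and the 7 expressed members 19 (3 to 27). All genes with a promoter had a median of 7, and the genes tested 19. The 6 called members with a promoter held 1 to 7 CG pairs. Among expressed members, Aldh1a1 with 3 and Uox with 6 lay in the range of the near-zero class. These are counts of letters, given without a test.

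**Figure D3:**
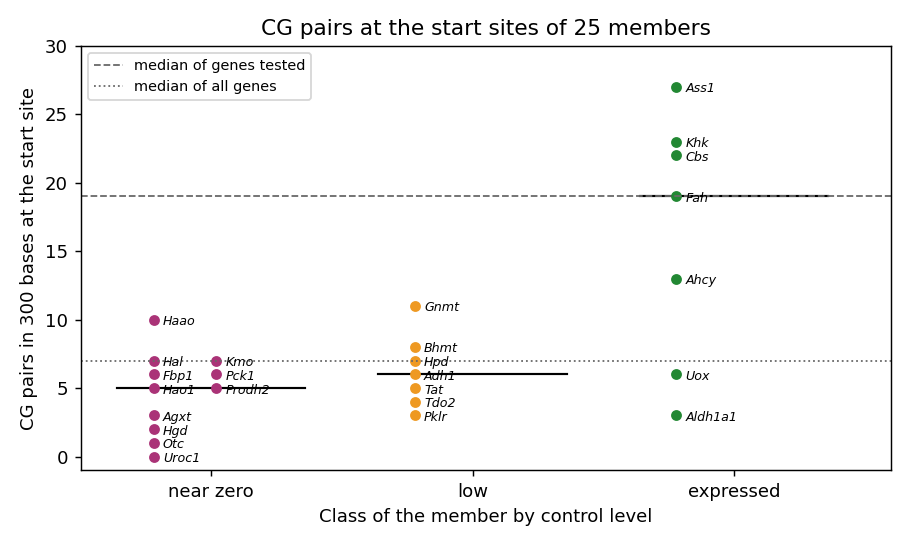
CG pairs within 300 bases at the start site (vertical axis) of the 25 members with a RefSeq promoter, by class of control level, with black lines at class medians, a dashed line at the median of genes tested (19) and a dotted line at that of all genes (7). Expressed members reach 27 pairs, and no near-zero member is above 10.

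A few motifs were also looked for on both strands of the same windows. The CREB motif TGACGTCA was in none of the 25 (2.03% of all genes with a promoter), and the HNF4A motif CAAAGTCCA was in none (0.555%). The C/EBP motif TTGCNNAA was found in 6 members, Aldh1a1, Hal, Hao1, Hgd, Prodh2 and Uox (12.2%), and TATAAA in 4, Hal, Hgd, Pklr and Tdo2 (15.7%). None of the 6 called members with a promoter held any of these motifs in this exact spelling. Near spellings, such as TTACGTCA in the printed Pck1 stretch beside the CREB motif TGACGTCA, were not counted, so a site is not excluded.

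Within the urea cycle, the first, second and last enzymes were called higher and the pair between them was not. Cps1, which makes carbamoyl phosphate from ammonia in the first and rate-limiting step, had 18, 26 and 7 counts in the control libraries and 169, 220 and 182 in the olanzapine libraries. Its log2 fold change was 3.50 (SE 0.40, edgeR adjusted p = 0.0055). Otc, which joins carbamoyl phosphate to ornithine to form citrulline, had 1, 3 and 3 against 22, 27 and 17 counts, a log2 fold change of 3.19 (SE 0.58, edgeR adjusted p = 0.035). Arg1, the liver arginase that releases urea, had 18, 12 and 9 against 160, 229 and 196 counts, a log2 fold change of 3.91 (SE 0.31, edgeR adjusted p = 0.0013). All 3 showed no overlap between the groups.

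Ass1 and Asl carry citrulline on to arginine, a route that other tissues use as well. Ass1 was the most abundant member in FPKM, with 43.9 ± 3.14 (SD, n = 3) in control and 47.1 ± 6.79 in olanzapine libraries. Its counts were 3088, 2717 and 2714 against 2468, 3251 and 3143, so the groups overlapped (log2 fold change 0.08, SE 0.11). Asl had 595, 519 and 639 against 686, 771 and 590 counts and overlapped too (0.24, SE 0.13). In FPKM, Ass1 in the control libraries exceeded Arg1 at 0.222 ± 0.077, Cps1 at 0.0757 ± 0.042 and Otc at 0.0124 ± 0.0062. With olanzapine these 3 reached 3.43 ± 0.62, 0.877 ± 0.127 and 0.120 ± 0.028 FPKM, still below Ass1. The call of Otc was lost when any 1 of the 6 libraries was left out (edgeR adjusted p 0.063 to 0.14), while Cps1 and Arg1 were called in all 6 of those fits.

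For tyrosine breakdown, the first and second enzymes were called. Tat, the aminotransferase that starts the pathway and a classical target of glucocorticoids, had 9, 27 and 27 control counts and 127, 125 and 118 olanzapine counts, a log2 fold change of 2.57 (SE 0.39, edgeR adjusted p = 0.019). Hpd, which makes homogentisate, had 8, 10 and 11 against 76, 98 and 69 counts, a log2 fold change of 3.07 (SE 0.33, edgeR adjusted p = 0.0040). Hgd, which opens the ring of homogentisate, had 0, 1 and 4 against 8, 19 and 21 counts and was too low to test, with a ratio of summed counts of 9.75 (95% exact interval 3.90 to 31.4, counting error only). Groups of all 3 enzymes were apart.

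Fah, the last step of that pathway, differed from them in level. It was already expressed at 12.0 ± 1.11 FPKM in control libraries, and its counts were 838, 705 and 720 against 930, 947 and 929. Of the 10 expressed members, it was the one whose groups did not overlap, at a log2 fold change of 0.33 (SE 0.10, edgeR adjusted p = 0.14), and it was not called. Hpd was called in all 6 fits that left out a library. The call of Tat was lost without control library 2 (edgeR adjusted p = 0.071), control library 3 (0.053), olanzapine library 2 (0.059) or olanzapine library 3 (0.072).

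No enzyme of tryptophan breakdown was called by edgeR, while DESeq2 called Haao and Kmo. Tdo2, the liver dioxygenase that opens the tryptophan ring, had 21, 60 and 40 against 91, 98 and 83 counts (log2 fold change 1.19, SE 0.37, edgeR adjusted p = 0.16). Haao, which acts before quinolinate, had 9, 8 and 13 against 28, 46 and 32 counts (1.83, SE 0.42, edgeR adjusted p = 0.071, DESeq2 adjusted p = 0.027). Kmo, the hydroxylase that acts on kynurenine between them, was the only member without a read in any control library, and had 13, 9 and 8 counts with olanzapine. With the control group set at a floor of 3 counts, the ratio for Kmo was 10.2, given without an interval for counting error. DESeq2 called Kmo (adjusted p of 0.013), and edgeR without the count filter did not (adjusted p of 0.080). In each of the 3 genes the olanzapine libraries lay above all control libraries.

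Histidine breakdown was represented by its first enzymes. Hal, which removes ammonia from histidine, had 1 count in each control library and 13, 8 and 14 counts with olanzapine (ratio 11.8, 95% exact interval 3.73 to 60.2). Uroc1, which acts next on urocanate, had 1, 1 and 2 against 12, 23 and 9 counts (ratio 11.2, interval 4.06 to 42.8). Both were under the count filter, and the groups of both were apart. DESeq2 gave Uroc1 an adjusted p of 0.038 and Hal one of 0.060, and edgeR without the filter called neither (adjusted p of 0.091 and 0.11).

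A mixed picture was found for serine, glutamine, glyoxylate and hydroxyproline. The enzymes of glyoxylate metabolism were near zero in control libraries, with Agxt, which turns glyoxylate into glycine, at 0, 0 and 1 against 8, 23 and 19 counts (ratio 50.8, 95% exact interval 8.70 to 2044). It was called by DESeq2 (adjusted p of 0.0067) and by edgeR without the count filter (adjusted p of 0.042). Hao1, the glycolate oxidase, had 2, 1 and 0 against 8, 9 and 12 counts (ratio 9.81, interval 3.04 to 50.3). Prodh2, which degrades hydroxyproline in mitochondria, had 0, 1 and 0 against 5, 6 and 1 counts (ratio 12.2, interval 1.80 to 521). At so few reads the size of these ratios is loosely bounded, and for Prodh2 olanzapine library 3 held no more reads than a control library. Normalized for library size, its 1 read came out above that of control library 2, which is why its groups count as apart.

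Sds and Gls2 did not share that pattern. Sds, which turns serine into pyruvate, had 24, 31 and 30 against 24, 53 and 22 counts, so the groups overlapped (log2 fold change 0.23, SE 0.43). Gls2, the glutaminase first known from liver and also present in brain, had 560, 473 and 479 against 889, 605 and 511 counts (0.43, SE 0.21, edgeR adjusted p = 0.34). Olanzapine library 1 was high for Gls2, and it was also the library in which 6 markers of cortical glutamatergic neurons summed to 904 CPM (counts scaled to library size) against 52.4 to 121 CPM in the other 5. The part of these markers in the value was not tested.

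The methionine cycle again split by level. Mat1a, the liver enzyme that makes S-adenosylmethionine, had 9, 23 and 7 against 190, 250 and 181 counts, a log2 fold change of 4.0 (SE 0.42, edgeR adjusted p = 0.0036). Gnmt, which spends S-adenosylmethionine on glycine, had 10, 55 and 45 against 97, 125 and 99 counts (1.56, SE 0.51, edgeR adjusted p = 0.17). Bhmt, which returns homocysteine to methionine with betaine, had 16, 30 and 47 against 89, 159 and 97 counts (1.90, SE 0.42, edgeR adjusted p = 0.063). The groups of all 3 were apart, and control library 1 was the lowest of its group for Gnmt and Bhmt. Without control library 2, the log2 fold change of Mat1a was 4.69.

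Ahcy, Cbs and Cth, which hydrolyse S-adenosylhomocysteine and carry homocysteine on to cysteine, were expressed with both diets. In FPKM, Ahcy stood at 10.6 ± 0.55 and 11.5 ± 1.95, Cbs at 13.3 ± 0.90 and 14.5 ± 0.41, and Cth at 2.53 ± 0.25 and 2.45 ± 0.23 in control and olanzapine libraries. Their log2 fold changes of 0.09 (SE 0.11), 0.11 (SE 0.08) and -0.07 (SE 0.16) came with overlapping groups in each. Stretches of 75 bases shared with other annotated transcripts made up 65.9% of Ahcy, 32.6% of Ass1 and 21.0% of Bhmt, mostly pseudogene copies, so their counts are less certain; in the called members no such stretch was found.

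Among enzymes of glucose metabolism, the gluconeogenic pair was called. Pck1 (chr2:173153048-173159273, plus strand), the cytosolic carboxykinase that commits carbon to gluconeogenesis, had 3, 11 and 3 against 133, 176 and 138 counts. Its log2 fold change of 4.71 (SE 0.47, edgeR adjusted p = 0.0031) was the largest of the 26 tested members. Fbp1, the fructose bisphosphatase of the same route, had 7, 9 and 3 against 47, 46 and 34 counts, a log2 fold change of 2.74 (SE 0.48, edgeR adjusted p = 0.029). Gys2, the liver glycogen synthase, had 0, 0 and 2 against 4, 5 and 13 counts (ratio 11.2, 95% exact interval 2.74 to 98.0). All groups of these 3 were apart. The call of Fbp1 was lost in each of the 6 fits without 1 library (edgeR adjusted p 0.053 to 0.12), and that of Pck1 in none, though without control library 2 its log2 fold change was 5.60.

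Khk and Pklr were not called. Khk, which phosphorylates fructose, had 309, 387 and 359 against 313, 397 and 299 counts (log2 fold change -0.04, SE 0.15). Pklr, the pyruvate kinase of liver and red cells, had 46, 43 and 49 against 11, 51 and 36 counts (-0.48, SE 0.50), with olanzapine library 1 lowest and the groups overlapping. An exon of Hcn3 lies opposite Pklr, and exons of other genes lie opposite Sds, Gls2, Bhmt and Adh1. Whether the counting used the strand is not given in the sources used here; Hcn3, Plbd2 (opposite Sds) and Spryd4 (opposite Gls2) had log2 fold changes between -0.12 and 0.00, and Gm16559, opposite Adh1, had no count in any library.

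Of the remaining enzymes, only Adh1 was called. Adh1, the main alcohol dehydrogenase of the liver, had 23, 62 and 47 against 201, 269 and 187 counts (log2 fold change 2.33, SE 0.35, edgeR adjusted p = 0.016), with the groups apart. Its call was lost without control library 3 (edgeR adjusted p = 0.069), olanzapine library 2 (0.058) or olanzapine library 3 (0.053). Aldh1a1, which oxidises retinaldehyde, had 1105, 945 and 1560 against 989, 1311 and 1092 counts (-0.07, SE 0.18). Uox, the urate oxidase, had 122, 157 and 227 against 137, 204 and 147 counts (-0.03, SE 0.26). Dpys, of pyrimidine breakdown, had 14, 16 and 4 against 24, 30 and 15 counts (1.03, SE 0.57, edgeR adjusted p = 0.39). The groups of Aldh1a1, Uox and Dpys overlapped, so of the 24 low and near-zero members the 3 whose groups were not apart were Dpys, Sds and Pklr.

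Isozymes gave a second view of the same steps, since most of them are the form used outside the liver. Pck2, the mitochondrial carboxykinase, stood at 6.33 FPKM in control and 5.67 in olanzapine libraries (log2 fold change -0.18, SE 0.10, edgeR adjusted p = 0.39). Pck1 made up 0.848% ± 0.690 (SD, n = 3) of the summed FPKM of the pair in control and 20.6% ± 3.59 in olanzapine libraries. For arginase, the share of Arg1 beside Arg2 was 12.7% ± 6.19 and 62.9% ± 3.69, with Arg2 itself at a log2 fold change of 0.34 (SE 0.28, edgeR adjusted p = 0.58). Arg1 was thus the more abundant arginase per length in all 3 olanzapine libraries and the less abundant in all 3 control libraries.

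Mat1a stayed a minor form even after its rise, at 0.155% ± 0.101 and 2.03% ± 0.40 of its sum with Mat2a, which had a log2 fold change of 0.30 (SE 0.08, edgeR adjusted p = 0.10). Adh1 held 2.44% ± 1.06 and 11.2% ± 1.33 beside Adh5, whose log2 fold change was 0.00 (SE 0.09). Shares of Ahcy beside Ahcyl1 (8.96% ± 0.332 and 9.53% ± 1.37) and of Pklr beside Pkm (0.240% ± 0.0150 and 0.159% ± 0.0985) overlapped between the diets. None of the isozyme partners named here was called, including Gys1 (0.02, SE 0.12), Prodh (-0.08, SE 0.12), Aldh1a7 (0.18, SE 0.45) and Ido1 (0.73, SE 0.46), and Fbp2 was too low to test. The difference between a member and its partner was not tested as such.

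**Figure D4:**
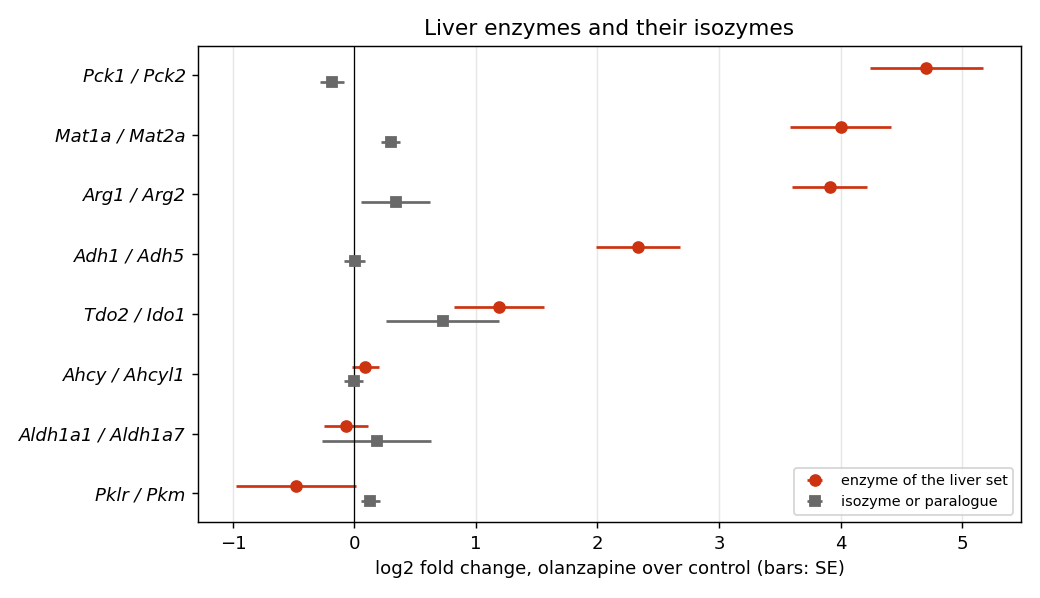
Log2 fold change of olanzapine over control (horizontal axis, bars are SE) for 8 enzymes of the set in red and for the isozyme or paralogue of each in grey. Pck1, Mat1a, Arg1 and Adh1 lie between 2.33 and 4.71 while their partners lie between -0.18 and 0.34.

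Beyond the members, 73 other genes of the same pathways were listed, and 64 were tested. Their median log2 fold change was 0.09, beside 0.00 over all genes tested. The groups did not overlap in 13 of the 64 in the higher direction (13.3% of all genes tested) and in 4 in the lower direction (11.0%).

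Secreted proteins of hepatocytes moved with the called members. Of 19 such markers, 17 were called higher, with a median log2 fold change of 4.02, and their counts summed to 2433, 2704 and 2209 in control and 14851, 17805 and 14630 in olanzapine libraries. Alb had 460, 507 and 268 against 5049, 6632 and 5345 counts. Among hepatocyte transcription factors, Hnf4a was called higher at 1, 1 and 1 against 32, 34 and 35 counts (log2 fold change 4.93, edgeR adjusted p = 0.0039), and it was the only 1 called of the 4 that could be tested among 10. Foxa2, Foxa3 and Nr1i3 had no count in the control libraries and at most 13 in any olanzapine library, and Creb3l3 had 9, 2 and 3 against 19, 30 and 26 counts (2.41, edgeR adjusted p = 0.096). Others of that list lay lower or level, with Prox1 at -0.43 and its olanzapine libraries below all control libraries (edgeR adjusted p = 0.11), Onecut1 at 39 against 14 summed counts, Nr0b2 at 8 against 4 and Nr1h4 at 21 against 22.

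The 9 called members did not share one ratio to Alb across the diets. Per 1000 Alb counts, Pck1 was higher with olanzapine, at 25.8 to 26.5 over the 3 libraries against 6.52 to 21.7 in control libraries. Adh1 (35.0 to 40.6 against 50 to 175), Hpd (12.9 to 15.1 against 17.4 to 41.0) and Fbp1 (6.36 to 9.31 against 11.2 to 17.8) were lower without overlap. The ranges overlapped for Cps1 (33.2 to 34.1 against 26.1 to 51.3), Arg1 (31.7 to 36.7 against 23.7 to 39.1), Mat1a (33.9 to 37.7 against 19.6 to 45.4), Otc (3.18 to 4.36 against 2.17 to 11.2) and Tat (18.8 to 25.2 against 19.6 to 101). Control ratios rest on few counts. Olanzapine library 2 was the highest of its group for 7 of the 9 called members, and it also had the highest sum of secreted proteins. Together, the 9 called members had 3.95, 6.77 and 5.30 counts per 100 counts of secreted proteins in control libraries. With olanzapine they had 7.58, 8.09 and 7.67, with no overlap, though they were chosen as called in this comparison. Much of this scale in the control libraries was Vtn, a secreted protein that was not called (log2 fold change 0.17). Its counts were 1356, 1491 and 1561 of the 2433, 2704 and 2209 in control libraries. They were 2039, 1486 and 1331 of the 14851, 17805 and 14630 in olanzapine libraries. The 24 low and near-zero members had 9.86, 15.9 and 16.1 counts per 100 counts of secreted proteins in control libraries. In olanzapine libraries they had 10.5, 11.8 and 11.0, so on this scale, Vtn included, the groups overlapped. Neither ratio was taken without Vtn, so neither compares the members with the called secreted proteins alone. The part of hepatocyte RNA in the members' differences was not tested.

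**Figure D5:**
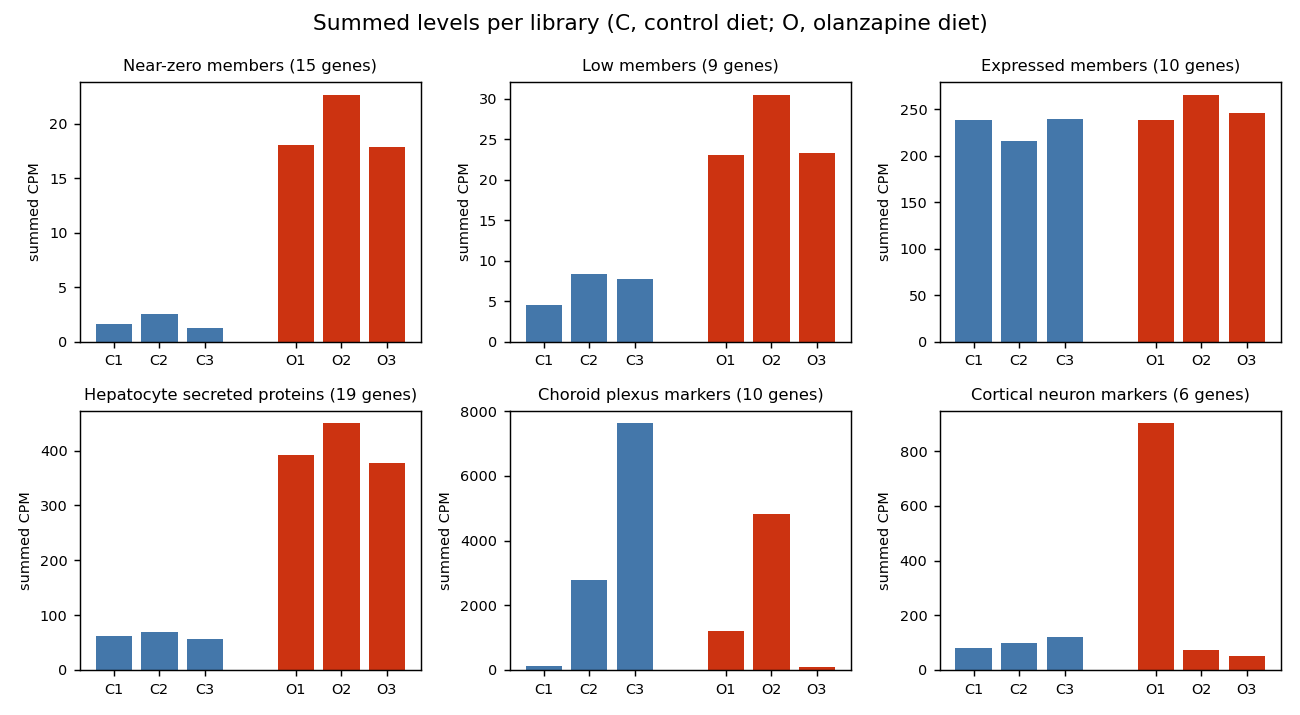
Summed CPM (vertical axes from 0) in each of the 6 libraries for the near-zero, low and expressed members and for markers of hepatocytes, choroid plexus and cortical neurons, with control libraries (C) in blue and olanzapine libraries (O) in red. Near-zero and low members and hepatocyte markers are high in O1, O2 and O3, expressed members overlap between the diets, choroid plexus markers are lowest in C1 and O3, and cortical markers stand out in O1.

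Markers of other cells of the liver were mostly too low to test. Of the 7 markers of Kupffer cells and liver sinusoids, Stab2 was tested and not called. Olanzapine libraries lay above control libraries at low counts for Clec4f (0, 0 and 1 against 3, 3 and 6), Cd5l (0 in each against 4, 10 and 2) and Timd4 (0 in each against 1, 1 and 4), while the groups overlapped for Vsig4 (0 in each against 1, 0 and 2), Oit3 (0, 3 and 2 against 1, 2 and 1) and Clec4g (0, 1 and 1 against 2, 1 and 1). Markers of other organs were tested in part, 3 of 5 for bile duct, 4 of 10 for kidney, 3 of 8 for small intestine, 2 of 6 for pancreas, 4 of 5 for skeletal muscle, 5 of 7 for blood and 0 of 5 for fat, and none of those tested was called. Kidney markers Umod and Kap and intestinal markers Fabp6 and Alpi were at 0 in every library. Groups were apart in the higher direction for the intestinal marker Fabp2 (0 in each against 3, 5 and 6 counts) and the muscle marker Myh4 (5, 2 and 8 against 16, 13 and 14 counts, log2 fold change 1.52, edgeR adjusted p = 0.24). They were apart in the lower direction for the bile duct markers Sox9 (-0.58, edgeR adjusted p = 0.061) and Spp1 (-0.32, edgeR adjusted p = 0.29) and the kidney marker Lrp2 (-0.60, edgeR adjusted p = 0.41). Sox9 is also on the astrocyte list, and Sox9 and Spp1 stood at 12.7 and 7.48 FPKM in control libraries. Summed kidney markers were 13.1 to 19.3 CPM in control and 8.73 to 16.5 CPM in olanzapine libraries. Slc22a8, also on the meninges list, held 281 of 513, 445 of 762 and 345 of 619 of their counts in control libraries. With olanzapine it held 397 of 627, 317 of 555 and 137 of 339.

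Among brain markers, those of the choroid plexus varied most between libraries, from 134 to 7642 CPM in control and from 85.4 to 4827 CPM in olanzapine libraries, with none of the 10 called. Control library 1, the lowest control library for them, was also the lowest for Tat, Tdo2, Bhmt, Gnmt and Adh1; without it, the log2 fold changes of Tat and Adh1 were 2.21 and 2.03 and both were called, and that of Gnmt was 1.12. Leaving out olanzapine library 1, which carried the cortical markers, left 9 members called, 7 of them shared with the 9 above. Of 5 nuclear RNAs, 4 were called higher (Malat1, Meg3, Snhg11 and Miat), and the 5 summed to 1806 to 2298 CPM in control and 4498 to 5533 CPM in olanzapine libraries. The part of these marker differences in the members' values was not tested. Markers of lateral septum neurons summed to 2468 to 3043 CPM and 2057 to 2736 CPM, and 0 of 12 were called. Those of astrocytes summed to 4412 to 4955 CPM in control and 3597 to 4206 CPM in olanzapine libraries, without overlap. Of these astrocyte markers 0 of 9 were called and 3 were apart in the lower direction, among them Sox9, named above for bile duct. Those of endothelium had log2 fold changes below 0 in all 6 genes, with a median of -0.41 and none called.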

How the data were processed

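RNA of the lateral septum was measured in 6 libraries, 3 per diet, each pooled from 3 mice. The authors deposited raw read counts per gene and FPKM values per gene. The submitters' processing notes name fastp, HISAT2 and HTSeq with the mm10 genome, without versions; the strand setting is not given in the sources used here. Counts were tested with edgeR 4.0.16 in R 4.3.3 (TMM scaling, filterByExpr at min.count 10 and min.total.count 15, quasi-likelihood F test, Benjamini-Hochberg over the 17255 genes tested). The SE is the log2 fold change divided by the square root of F. Normalized counts were scaled to the mean effective library size, and CPM used effective sizes. Groups came from the labels, which do not say how pools were formed, so p-values measure the spread between these pools. Alternatives used DESeq2 1.42.0, limma 3.58.1, other scalings and filters, and leaving out each library. The main edgeR fit, DESeq2 and limma (on CPM rather than FPKM) were first run on simulated counts, and the other settings were not. The members, lists and motifs were chosen with earlier results of these data known. All 34 members are named, and of the other pathway genes those called and the isozyme partners, except a few items not reported here; further genes come from the marker lists or lie opposite a member. Positions come from GENCODE M21, promoters from RefSeq. Intervals of count ratios cover 95% of counting error only, from exact Clopper-Pearson limits; reads carried no molecular identifiers in the sources used here.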

Additional observations from a re-analysis of the deposited data

How the results depend on the processing

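The direction of each of the 9 called members was the same in every alternative run. Arg1, Mat1a and Pck1 were called in all 15 alternatives and Hpd in all 14 that could include it. The count of 9 members called higher became 15 with DESeq2, which added Agxt, Bhmt, Gnmt, Haao, Kmo and Uroc1, and 5 under limma on log2(FPKM + 1), filtered or not, a scale that shrinks the change of low genes and that lost Cps1, Fbp1, Otc and Tat. Without a filter on low counts it was 11, with Agxt and Bhmt added. It ran from 5 to 9 when 1 library was left out. The fits without control library 3, olanzapine library 2 or olanzapine library 3 each called 5, and Arg1, Cps1, Hpd, Mat1a and Pck1 were called in all 6. The count over all genes of 164 higher became 268 with DESeq2, 65 and 60 with limma on log2(FPKM + 1) with and without a filter, 316 without a limit on the fold change, and 85 to 158 when 1 library was left out. The 10 genes called lower became 37 with DESeq2, 0 and 0 with limma on log2(FPKM + 1) with and without a filter, 7 on log2(FPKM + 0.1), 85 without a limit on the fold change, and 0 to 18 when 1 library was left out. With the replicate block, 86 genes were called higher, 0 lower and 6 members higher (Fbp1, Otc and Tat lost), but same-numbered libraries did not deviate together (correlations of -0.0026, 0.062 and -0.25), so the numbers do not pair the samples. The median log2 fold change of the 26 tested members, 1.11, became 0.44 over the 19 left by a mean of at least 50 counts (0.43 for these 19 as reported), 0.33 and 0.28 on log2(FPKM + 1) with and without a filter, 0.65 on log2(FPKM + 0.1), and 0.92 to 1.48 when 1 library was left out; the cause was not tested beyond the members and scale each fit holds. Depth limits the 8 untested members, each with at most 50 counts over the olanzapine libraries.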
